A study of Homo sapiens with 4 samples.

Results

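The HOXB cluster is the row of HOX genes on human chromosome 17 (hg38), and its members were taken as the 10 genes HOXB1 to HOXB9 and HOXB13, of 19974 protein-coding genes placed on chromosomes 1 to 22 and X. All peaks of the DNA-binding profile of BAF45D from 500 kb before to 500 kb after these genes were described with them. BAF45D is the product of DPF2, a zinc finger subunit of the BAF chromatin remodelling complex. It was profiled by CUT&Tag, in which an antibody brings a transposase to the DNA beside its target, with 1 peak list for each of 2 libraries of spinal cord neural stem cells (NSC1 and NSC2) and 2 libraries of embryonic stem cells (ESC1 and ESC2). The window held 39 of 29783 peaks in NSC1, 39 of 24669 in NSC2, 5 of 4204 in ESC1 and 15 of 12533 in ESC2. Peaks that overlapped between libraries were merged into 51 regions, of 44534 in all.

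The NSC were derived from the H9 line, an established human embryonic stem cell line, by neural induction with LDN-193189, SB431542, CHIR-99021, FGF2, FGF8 and DAPT, then by maintenance with SB-431542, CHIR-99021 and Hh-Ag 1.5, and were kept with FGF2 and EGF. The NSC had 10 days of neural induction and 5 subpassages. The ESC were H9 cells on Matrigel in mTeSR1 medium. Each assay of either group used 100000 cells. No genetic change was described in either group. All libraries thus come from 1 cell line, and the labels do not say that libraries of a cell type came from separate cultures, so their spread may be technical. No library with an untargeted antibody was used here. As a check of identity, peaks at gene ends were found at 3 and 3 of 5 neural stem cell markers in NSC1 and NSC2, against 1 and 1 in ESC1 and ESC2, and at 4 and 3 of 5 spinal cord markers, against 0 and 0. Pluripotency markers had 2 and 2 of 5 in NSC1 and NSC2, against 2 and 3 in ESC1 and ESC2, and mesoderm, endoderm and neural crest markers 0 of 3 in each library. Over all protein-coding genes the shares were 42.8% in NSC1 and 38.1% in NSC2, against 6.67% in ESC1 and 22.8% in ESC2. Higher counts in NSC than in ESC are thus also found over genes in general. Within 1 kb of their ends SOX2 and LIN28A had a peak in every library, and POU5F1, NANOG, PAX6 and MSI1 in none. At their ends SOX1 and NES had peaks in NSC1 and NSC2 but not in ESC1 or ESC2. Within 10 kb SOX1 and POU5F1 had peaks in all 4 libraries and NES also had one in ESC2. MSI1 then had peaks in NSC1 and NSC2 alone, PAX6 in NSC1 alone and NANOG in none. The markers thus do not separate the cell types in full. A peak at a marker is not its expression.

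HOX genes encode transcription factors that give cells their position along the body axis. Within a HOX cluster the order of the genes matches the order of their expression from head to tail, so that HOXB1 acts in the hindbrain, the middle genes further back in the hindbrain and the upper spinal cord, and HOXB13 at the tail end. All HOXB genes are transcribed in the same direction, toward the HOXB1 end, and the wide stretch between HOXB9 and HOXB13 holds mainly noncoding RNA genes. In embryonic stem cells HOX clusters are known as targets of Polycomb repression, and retinoic acid, WNT and FGF signals switch them on in turn.

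Starts of genes in the window are shown here because they cover the patterns found, from no peak to a peak in every library. Each is a RefSeq promoter window of 250 bases before and 50 after a listed start (GRCh38.p14), written 5′ to 3′ along the gene, and capitals mark bases inside a peak of every library that had a peak in that window. HOXB1 (chr17:48530962-48531261, minus strand) had no peak, and HOXB-AS2 (chr17:48555907-48556206, plus strand), a noncoding RNA that starts inside HOXB3, had 107 bases within the peaks of both NSC libraries. A place is called NSC-only below when NSC1 and NSC2 each had a peak there and ESC1 and ESC2 had none, as 10.8% of all 34961 promoter windows did, while 3.27% had a peak in all 4.
HOXB1: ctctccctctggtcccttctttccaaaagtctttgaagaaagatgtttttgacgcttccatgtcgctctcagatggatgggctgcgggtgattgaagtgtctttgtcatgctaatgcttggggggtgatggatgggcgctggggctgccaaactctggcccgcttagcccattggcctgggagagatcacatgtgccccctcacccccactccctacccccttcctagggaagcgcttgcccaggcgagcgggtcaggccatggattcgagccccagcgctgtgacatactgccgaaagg
HOXB-AS2: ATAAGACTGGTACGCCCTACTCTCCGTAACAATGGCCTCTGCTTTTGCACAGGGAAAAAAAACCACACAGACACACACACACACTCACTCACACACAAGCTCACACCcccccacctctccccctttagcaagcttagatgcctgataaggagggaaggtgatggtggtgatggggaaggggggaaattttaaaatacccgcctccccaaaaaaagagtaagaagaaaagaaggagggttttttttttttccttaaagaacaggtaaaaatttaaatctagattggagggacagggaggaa
The flanks supplied the contrasts. CBX1 (chr17:48101137-48101436, minus strand), which encodes a heterochromatin protein, had a peak over all 300 bases in NSC1 and NSC2, and no ESC peak reached these bases, although ESC2 had one close by at the same gene end. ATP5MC1 (chr17:48892537-48892836, plus strand), which encodes a subunit of the mitochondrial ATP synthase, had a peak over the whole window in all 4 libraries.
CBX1: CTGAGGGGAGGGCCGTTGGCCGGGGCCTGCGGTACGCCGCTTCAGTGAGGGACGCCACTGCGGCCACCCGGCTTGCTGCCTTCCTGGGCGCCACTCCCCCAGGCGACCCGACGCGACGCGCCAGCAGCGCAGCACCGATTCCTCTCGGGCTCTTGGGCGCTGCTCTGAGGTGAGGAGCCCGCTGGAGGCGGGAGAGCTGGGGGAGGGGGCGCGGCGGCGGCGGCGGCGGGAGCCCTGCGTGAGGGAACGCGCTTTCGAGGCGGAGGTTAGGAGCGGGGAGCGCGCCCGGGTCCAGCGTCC
ATP5MC1: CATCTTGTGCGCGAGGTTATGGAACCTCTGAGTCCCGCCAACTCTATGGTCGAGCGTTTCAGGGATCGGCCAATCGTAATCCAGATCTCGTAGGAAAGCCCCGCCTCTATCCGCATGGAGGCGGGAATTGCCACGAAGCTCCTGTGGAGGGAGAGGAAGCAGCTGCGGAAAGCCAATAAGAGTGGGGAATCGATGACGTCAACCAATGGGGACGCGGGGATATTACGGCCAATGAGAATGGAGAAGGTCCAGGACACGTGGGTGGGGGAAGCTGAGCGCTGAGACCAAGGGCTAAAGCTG
These windows also differ in composition. The HOXB-AS2 window has a GC content of 45.3% and 3 CpG dinucleotides, HOXB1 58.0% and 11, CBX1 75.7% and 38, and ATP5MC1 57.0% and 20. Over all promoter windows the medians are 58.7% and 14, and over the 3785 NSC-only windows they are 69.3% and 31. The HOXB-AS2 window is thus poorer in GC and CpG than the median window of its own class.

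The letters of 9 short motifs were searched on both strands. The HOXB1 window holds 1 match of the POU motif ATGCNAAT (in 2.96% of all windows), 1 of the SOX motif ACAANG (35.4%), 1 of the CTCF core AGGGGGC (14.4%) and 3 of the E-box CANNTG (68.7%). The HOXB-AS2 window holds 1 SOX match. Neither holds the PBX-HOX motif TGATTNAT (2.82%), the MEIS motif TGACAG (15.8%), the retinoic acid half-site AGGTCA (13.8%), the CDX motif TTTATNG (9.73%) or the AP-1 motif TGANTCA (7.68%). These are matches of letters in 300 bases, and HOXB1 was the only HOXB gene of the 10 with an entry in the promoter table.

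The cluster also carries microRNA genes, of which MIR10A lies between HOXB4 and HOXB5 and MIR196A1 between HOXB9 and HOXB13. Their mature 5p forms are shown with the seed (bases 2 to 8), the part that pairs with target RNAs, in capitals. The seeds differ, and miR-196 is known from mouse to direct the cleavage of the Hoxb8 transcript.
hsa-miR-10a-5p: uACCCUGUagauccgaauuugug
hsa-miR-196a-5p: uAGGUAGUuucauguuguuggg
None of the 6 microRNA genes of the window had a peak in it or within 1 kb. The nearest peak to the MIR10A product (chr17:48579904-48579926, minus strand) was 10202 bp away in NSC1 and 10215 bp in NSC2, against 312452 bp in ESC1 and 225044 bp in ESC2. For the MIR196A1 product (chr17:48632532-48632553, minus strand) it was 3985 and 3984 bp in NSC1 and NSC2, against 259825 and 172417 bp in ESC1 and ESC2.

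Within the cluster itself, BAF45D peaks were found in the NSC libraries alone. Over the 200.2 kb from the start of HOXB1 to the end of HOXB13 there were 5 peaks in NSC1 and 6 in NSC2, against 0 in ESC1 and 0 in ESC2. NSC averaged 5.5 ± 0.707 peaks and ESC 0 ± 0 (SD over 2 libraries each), a difference of 5.5 (two-sided exact permutation test, p = 0.333, the smallest p that 2 libraries against 2 can give). The libraries of the cell types did not overlap in number. The lists themselves differed in length, however, and at the mean density of each list a stretch of this size would hold 1.92 peaks in NSC1 and 1.59 in NSC2, against 0.272 in ESC1 and 0.810 in ESC2. The cluster was thus denser than the average of both NSC lists, and a count of 0 in it lies less than 1 peak below the average of either ESC list. When each list was cut to its 4204 strongest peaks, the number in ESC1, the difference was 1.5 peaks (exact permutation p = 0.333), and with only peaks of −log10 q of at least 5 it was 4. Tags ran the other way, with 5566407 in NSC1 and 5377831 in NSC2, against 20734829 in ESC1 and 18953543 in ESC2.

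**Figure D1:**
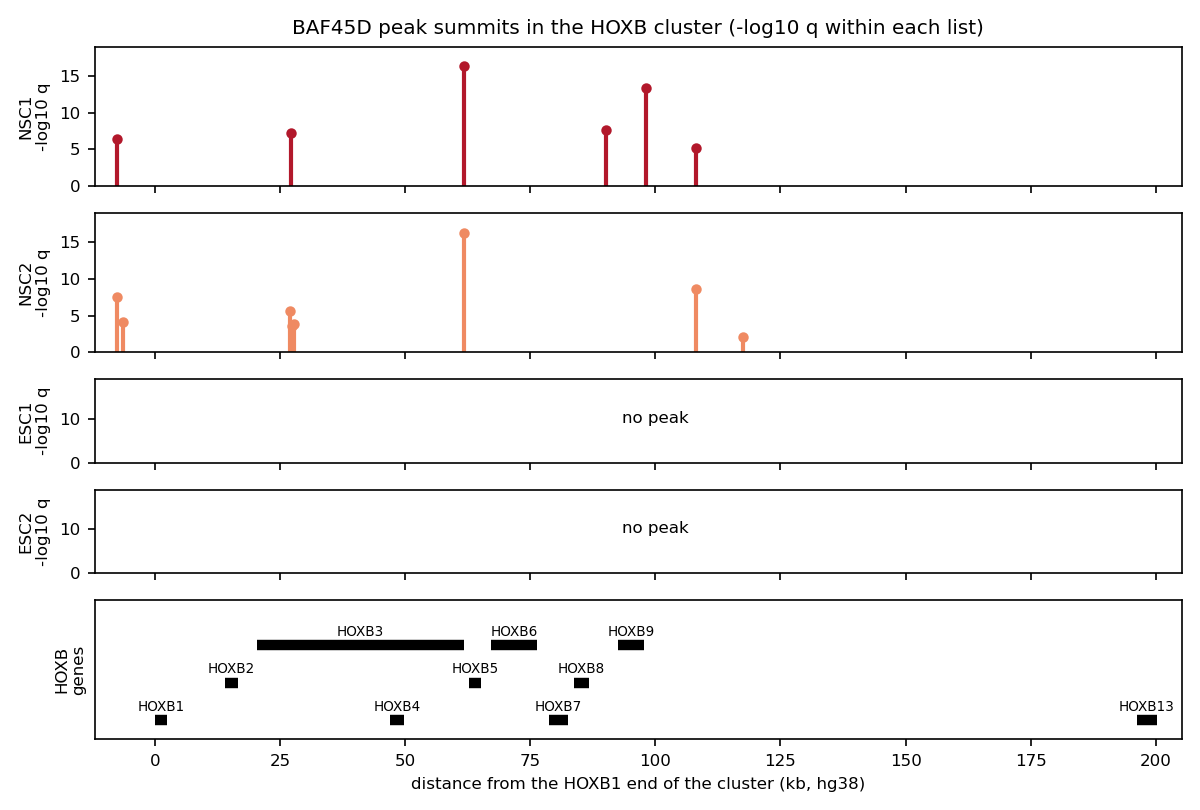
Each stem is a peak summit, placed by its distance in kb from the HOXB1 end of the cluster, with the authors' −log10 q within its own list as height, in NSC1, NSC2, ESC1 and ESC2 from top to bottom, and black bars are the HOXB genes. Both NSC libraries have their tallest stem at the end of HOXB3 that faces HOXB5, and no ESC library has a peak.

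The cluster peaks of the NSC formed 7 regions, of which 3 were NSC-only. Of all 44534 regions, 30.6% were NSC-only. The other 4 had a peak in 1 NSC library each, and no region of the cluster had an ESC peak. The 3 NSC-only regions lay inside HOXB3, across the end of HOXB3 that faces HOXB5, and beyond HOXB9. At lists of equal length 1 of them was still called, and with NSC1 or NSC2 left out the count was 6 or 5.

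The strongest lay at chr17:48590128-48590387, across the end of HOXB3 (chr17:48548870-48590241) that holds its most upstream start. HOXB3 and HOXB5 act in the hindbrain and upper spinal cord. The same region was 870 bp in NSC1 and 881 bp in NSC2 from HOXB5 (chr17:48591257-48593779) and within 1 kb of the noncoding HOXB-AS3. Its −log10 q was 16.5 in NSC1 and 16.3 in NSC2, and the authors' fold over the local background was 6.01 and 6.45. These values stood at the 90.2th percentile of the NSC1 list and the 91.3th percentile of the NSC2 list, and the summits of the libraries were 7 bp apart. Over all 17793 regions that the NSC libraries shared the median distance between summits was 43 bp. By its mean percentile the region ranked 3 among the 51 regions of the window.

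The second lay inside HOXB3 at chr17:48555403-48556018, at the start of HOXB-AS2, whose promoter window is printed above. Its −log10 q was 7.22 in NSC1 and 5.62 in NSC2, at percentiles 65.3 and 54.4. The strongest summits of the libraries were 254 bp apart. In NSC2 the region held 2 separate peaks, and a further NSC2 peak with a −log10 q of 3.88 lay beside it at chr17:48556260-48556459. In NSC1 the region was 1 peak with 2 summits. The position was thus common to the NSC libraries, while the number of peaks called differed.

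The third was at chr17:48636537-48636844, inside the noncoding LINC03057 between HOXB9 and HOXB13. It had a −log10 q of 5.14 in NSC1 and 8.59 in NSC2, with both summits at the same base. It lay 10179 bp from HOXB9 (chr17:48621156-48626358) and is the region nearest to MIR196A1.

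The regions of 1 NSC library included the end of HOXB9, a gene of the thoracic part of the axis. There NSC1 had a peak with a −log10 q of 13.4 (chr17:48626418-48626856, 60 bp from HOXB9, 86.0th percentile) and NSC2 had none. By rank this was the strongest cluster region after that of HOXB3, although the other NSC library did not share it. Another NSC1 peak, with a −log10 q of 7.66, lay between HOXB8 and HOXB9 at chr17:48618646-48618845. The remaining NSC2 peak was weak, with a −log10 q of 2.13, at the boundary of LINC03057 (chr17:48646002-48646201).

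By gene, HOXB3 and HOXB5 were the members with a peak within 1 kb of a gene end in both NSC libraries. In NSC1 3 of the 10 HOXB genes had such a peak (HOXB3, HOXB5, HOXB9) and in NSC2 2 (HOXB3, HOXB5), against 0 in ESC1 and 0 in ESC2. Over all protein-coding genes the shares were 42.8% in NSC1 and 38.1% in NSC2, against 6.67% in ESC1 and 22.8% in ESC2. NSC-only calls took 2 of the 10 members, beside 16.2% of all genes, and 7 of 10 had no peak at an end in any library, beside 51.1% of all genes. The share of HOXB genes with a peak at an end was below that of all genes in each library. HOXB3 and HOXB5 share 1 region, so these 2 calls are not independent. The genes of the window with the same pattern were the noncoding HOXB-AS2, HOXB-AS3 and LOC105371808, which are 3 of 19 long noncoding RNA genes there, beside 7.04% of 18177 such genes. The pattern of most HOXB genes, no peak at either end, was that of 46 of all 69 genes of the window.

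With the genes extended by 10 kb on either side, the NSC libraries reached members on both sides of HOXB3. In NSC1 7 of 10 had a peak (HOXB1, HOXB3, HOXB5, HOXB6, HOXB7, HOXB8, HOXB9) and in NSC2 4 (HOXB1, HOXB3, HOXB5, HOXB6), against 0 in both ESC libraries. HOXB2, HOXB4 and HOXB13 had none in any library, beside 25.9% of all genes. The shares over all genes were 64.2% in NSC1 and 59.2% in NSC2, against 15.3% in ESC1 and 43.4% in ESC2. The NSC-only members were the 4 of NSC2, beside 19.7% of all genes. HOXB6 was reached from the HOXB3 region, 5364 bp away in NSC1 and 5375 bp in NSC2, so the calls of HOXB3, HOXB5 and HOXB6 share a region. The count was 1 (HOXB3) with peaks inside the gene alone, 2 within 5 kb, 6 within 11 kb and 7 without NSC2. The 11 kb window was chosen after the data were seen, since HOXB2 and HOXB9 lie just past 10 kb.

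The member nearest the HOXB1 end, HOXB1 (chr17:48528526-48531011), had its nearest peak 7344 bp away in NSC1 and 6173 bp in NSC2, against 361367 bp in ESC1 and 273959 bp in ESC2. Both NSC peaks lay in the noncoding LOC105371808, just outside the cluster. The region shared by the NSC libraries there, chr17:48520895-48521182, had a −log10 q of 6.46 and 7.52, and the nearer NSC2 peak one of 4.17. HOXB1 was not called at lists of equal length.

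HOXB2 (chr17:48542655-48545109), a hindbrain gene, was 10294 bp in NSC1 and 10300 bp in NSC2 from the HOXB-AS2 region, against 347269 bp in ESC1 and 259861 bp in ESC2 from any peak. HOXB4 (chr17:48575507-48578350), known also for its role in blood stem cells, was 11778 and 11791 bp in NSC1 and NSC2 from the HOXB3 region, against 314028 and 226620 bp in ESC1 and ESC2. Both genes thus fell just outside the 10 kb window, although HOXB4 lies within the span of HOXB3.

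HOXB7 (chr17:48607232-48611017) and HOXB8 (chr17:48612346-48615292) differed between the NSC libraries. The nearest peak to HOXB7 was 7629 bp away in NSC1 and 16856 bp in NSC2, against 281361 bp in ESC1 and 193953 bp in ESC2. For HOXB8 it was 3354 bp in NSC1 and 21245 bp in NSC2, against 277086 and 189678 bp in ESC1 and ESC2. The nearer NSC1 values come from the single NSC1 peak between HOXB8 and HOXB9.

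HOXB13 (chr17:48724763-48728750), the member of the tail bud and the prostate, stood apart from the rest. Its nearest peak was 88026 bp away in NSC1 and 78562 bp in NSC2, against 163628 bp in ESC1 and 76220 bp in ESC2. Of the 4 libraries ESC2 was thus the nearest, which held for no other member. A stretch without peaks ran over it in every list, from LINC03057 to the far end of TTLL6 in the NSC. This stretch was 180.3 kb long in NSC1 and 170.8 kb in NSC2, while the stretch over the whole cluster was 836.5 kb in ESC1 and 644.1 kb in ESC2. Of all stretches between neighbouring peaks, 14.7% were longer in NSC1, 20.9% in NSC2, 27.2% in ESC1 and 8.38% in ESC2. A given position is more likely to fall in a long stretch, and stretches at least as long held 55.5% of all bases between peaks in NSC1 and 65.4% in NSC2, against 75.6% in ESC1 and 41.6% in ESC2.

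**Figure D2:**
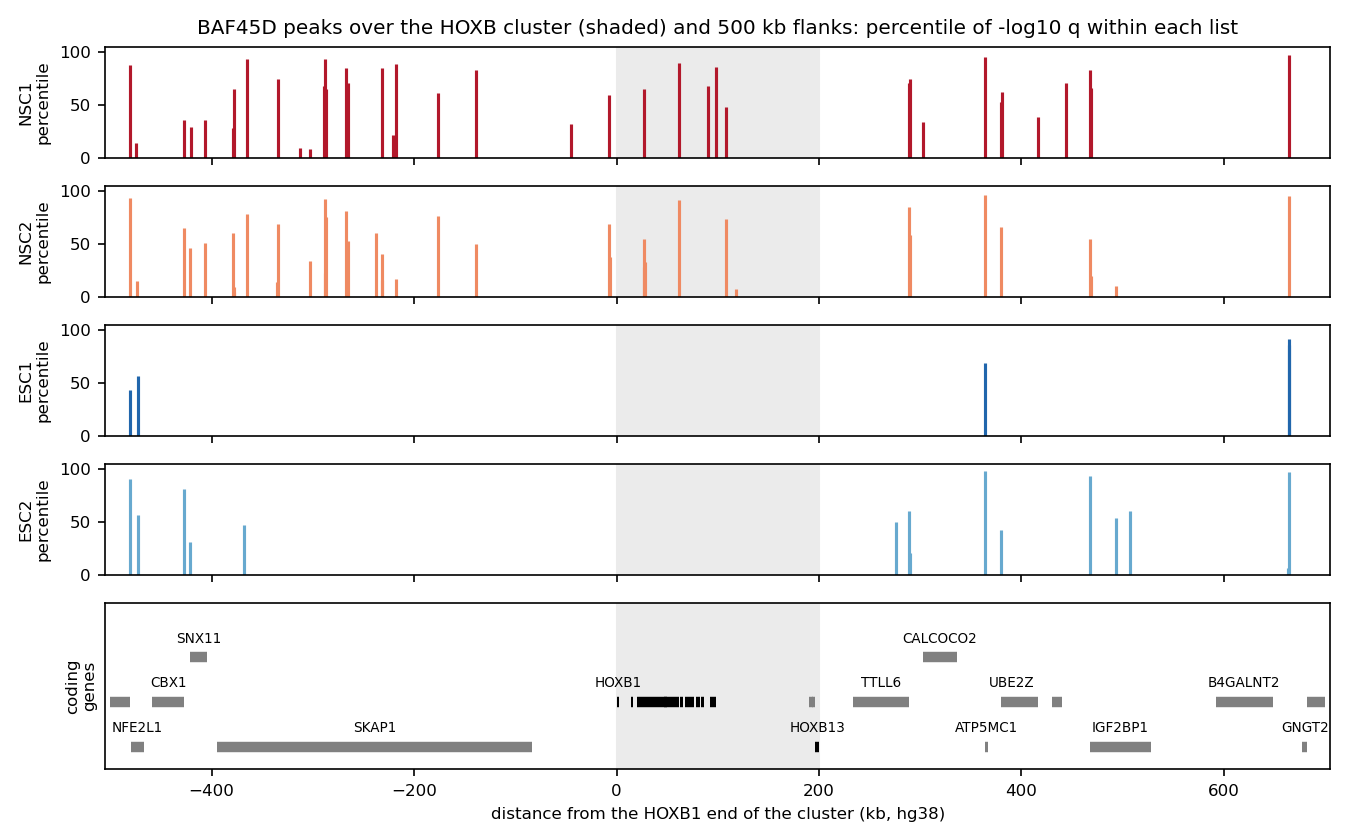
Stems are the peaks of NSC1, NSC2, ESC1 and ESC2 from top to bottom, placed in kb from the HOXB1 end of the cluster, with the percentile of −log10 q in the own list as height, and bars at the foot are protein-coding genes (HOXB genes black, cluster shaded). The flank on the HOXB1 side is filled with NSC stems over SKAP1, and the flank on the HOXB13 side has stems of both cell types at gene ends.

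The flanks differed from each other. On the HOXB1 side there were 23 peaks in NSC1 and 25 in NSC2, against 2 in ESC1 and 5 in ESC2, a mean of 24 ± 1.41 for NSC and 3.5 ± 2.12 for ESC (SD; exact permutation p = 0.333). At the density of each list it would hold 4.80 peaks in NSC1 and 3.98 in NSC2, against 0.678 in ESC1 and 2.02 in ESC2. On the HOXB13 side there were 11 and 8 peaks in NSC1 and NSC2, against 3 and 10 in ESC1 and ESC2, a mean of 9.5 ± 2.12 in NSC and 6.5 ± 4.95 in ESC (exact permutation p = 0.667). In number of peaks the cell types overlapped on the HOXB13 side and not on the HOXB1 side. Both flanks are 500 kb long, so the numbers at list density are the same for the HOXB13 side. Per 1000 peaks of the list the HOXB13 side held 0.369 in NSC1 and 0.324 in NSC2, against 0.714 in ESC1 and 0.798 in ESC2. On the HOXB1 side the values were 0.772 and 1.01 in NSC1 and NSC2, against 0.476 and 0.399 in ESC1 and ESC2. As a share of the list, the HOXB13 side was thus higher in ESC. At lists of equal length the difference of means was 1 peak on the HOXB1 side (exact permutation p = 1) and −0.5 on the HOXB13 side, where it was also −0.5 without ESC1.

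**Figure D3:**
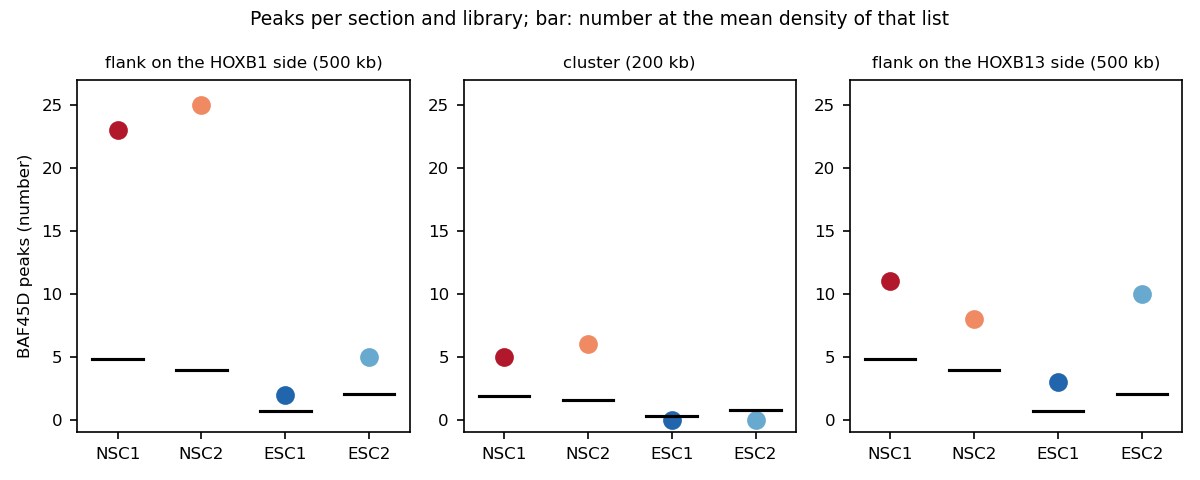
Dots are the number of BAF45D peaks in NSC1, NSC2, ESC1 and ESC2 for the flank on the HOXB1 side, the cluster and the flank on the HOXB13 side, and each bar is the number at the mean density of that list. The NSC dots of the HOXB1 side, 23 and 25, stand highest above their bars, 4.80 and 3.98, and the ESC dots of the cluster are at 0.

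Most NSC peaks of the HOXB1 side lay in SKAP1 (chr17:48133442-48445061), which encodes an adaptor protein of T cells. Its span held 16 peaks in NSC1 and 18 in NSC2, against 0 in ESC1 and 1 in ESC2. None of them lay within 1 kb of an end of SKAP1. They merged into 20 regions with 13 NSC-only among them, the same as 4.17 NSC-only regions per 100 kb, against 0.555 in all 722 protein-coding genes at least as long and 0.440 genome-wide. SKAP1 ranked 7 of 19974 genes by the number of such regions, and 11 of the 722 long genes had as many, with a median of 2. The number was 8 with peaks of −log10 q of at least 5 and 1 at lists of equal length.

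The strongest SKAP1 region stood higher in both NSC lists than the HOXB3 region. At chr17:48240128-48240894 the −log10 q was 20.5 in NSC1 and 17.6 in NSC2, which ranked 2 in the window. At chr17:48162873-48163455 it was 20.4 and 9.88, and at chr17:48261166-48261693 it was 12.7 and 10.6. The single ESC2 peak, with a −log10 q of 3.99, lay at chr17:48160607-48160832 and overlapped none of them.

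Most regions with peaks of both cell types lay at the ends of flanking genes. Of the 3 regions with a peak in all 4 libraries (3.27% of all regions), the strongest was the glutamine tRNA gene TRQ-TTG1-1 (chr17:49191897-49193173), with a −log10 q of 31.2 in NSC1 and 21.6 in NSC2, against 16.8 in ESC1 and 32.8 in ESC2. At ATP5MC1 (chr17:48892239-48893247) it was 22.7 and 23.3 in NSC1 and NSC2, against 5.51 and 37.2 in ESC1 and ESC2. At the facing ends of COPZ2 and NFE2L1, which encodes a stress-response transcription factor, it was 14.5 and 18.8 in NSC1 and NSC2, against 3.36 and 15.8 in ESC1 and ESC2 (chr17:48047957-48048799). Each of these strengths is relative to its own list, so they show presence and rank and no change between cell types. Without ESC1 the number of regions present in every library was 9, which adds the ends of CBX1, SNX11, TTLL6, UBE2Z and IGF2BP1 and a region beside TTLL6.

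At CBX1 (chr17:48100580-48101671) the −log10 q was 4.17 in NSC1 and 7.02 in NSC2, against 9.46 in ESC2 and no peak in ESC1. At SNX11, a sorting nexin gene, it was 3.75 and 4.90 in NSC1 and NSC2, against 3.01 in ESC2, at the start (chr17:48107303-48107878), and the far end had an NSC-only region with 4.18 and 5.24 (chr17:48122198-48122667). The end of UBE2Z, a ubiquitin-conjugating enzyme gene, had 5.64 in NSC1 and 7.18 in NSC2, against 3.73 in ESC2 (chr17:48907795-48908463). Among noncoding and pseudogene neighbours, LOC124904018, SKAP1-AS2 and LINC02086 had peaks in the NSC alone, RNU6-826P in ESC2 alone, and NFE2L1-DT, LOC105371813 and LOC105371814 in libraries of both cell types.

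Away from gene ends, both cell types had peaks in the region beside TTLL6 (chr17:48818267-48818904), with a −log10 q of 9.24 in NSC1 and 6.07 in NSC2, against 2.42 in ESC2, and in one inside IGF2BP1 (chr17:49022153-49022651) with 2.31 in NSC2, against 4.56 in ESC2.

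IGF2BP1, which encodes an RNA-binding protein of embryonic tissues, had a peak at its start (chr17:48995960-48996687) with a −log10 q of 11.8 in NSC1 and 5.63 in NSC2, against 19.9 in ESC2 and no peak in ESC1. A smaller NSC-only region lay beside it (chr17:48996898-48997233), with 7.41 in NSC1 and 2.98 in NSC2. It was the only NSC-only region of the HOXB13 side. TTLL6 encodes a tubulin-modifying enzyme, and its body lies within the NSC stretch without peaks, which ends at the far end of the gene. That end had 8.22 in NSC1 and 12.5 in NSC2, against 5.19 in ESC2 and no peak in ESC1 (chr17:48817002-48817435). The ends of CALCOCO2 and SNF8 had a peak in NSC1 alone, with 4.04 and 4.39.

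The window held 1 ESC-only region (1.65% of all regions were), inside NFE2L1 at chr17:48055593-48055929, with a −log10 q of 4.22 in ESC1 and 4.79 in ESC2. Without ESC1, 4 regions were found in the ESC and not in the NSC, and with peaks of −log10 q of at least 5 there was none.

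Of the 18 other protein-coding genes of the window, 10 had a peak at an end in NSC1 and 8 in NSC2, against 3 in ESC1 and 8 in ESC2. Of these genes 0 were NSC-only, beside 16.2% of all genes, and 3 had a peak in all 4 libraries, beside 5.88%. Of those 3, COPZ2 and NFE2L1 share 1 region, so their calls are not independent. Regions shared by NSC1 and NSC2 differed by place in how many had an ESC counterpart. At gene ends 7 of 10 such regions of the window also had an ESC peak, beside 48.8% of all. Inside genes it was 0 of 14, beside 10.8% of all, and 13 of the 14 lay in SKAP1. Counts this small were not tested against these shares. By section, 0 of 3 such regions of the cluster, 3 of 18 on the HOXB1 side and 6 of 7 on the HOXB13 side had an ESC peak, beside 23.3% of all. The flanks differ in place, with 13 of the 18 inside genes and 5 of the 7 at gene ends. The share over all regions is thus not matched to either flank. With 3 regions, the count of the cluster is not told apart from that share. Of the 19 NSC-only regions of the window, 14 lay inside genes, beside 38.7% of all NSC-only regions, and 13 of these were in SKAP1. A further 3 lay at gene ends, beside 21.8%, and 2 outside genes, beside 39.5%.

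Over its span to HOXB13 the HOXB cluster was the least dense of the HOX clusters in NSC1 and had a similar number of peaks. That span includes the wide stretch between HOXB9 and HOXB13. With the cluster ended at HOXB9 the NSC mean was 3.5 peaks, against 5.5 to HOXB13. The density of that shorter part was not compared with the other clusters. In HOXB there were 2.497 peaks per 100 kb in NSC1 and 3.00 in NSC2. The other clusters had 7.47 and 4.67 (HOXA, chromosome 7), 5.12 and 2.56 (HOXC, chromosome 12) and 2.90 and 4.83 (HOXD, chromosome 2) in NSC1 and NSC2, and 0 in both ESC libraries. Just outside the HOXC span, ESC2 had a peak within 1 kb of an end of 1 HOXC gene. HOXB spans 200.2 kb, against 107 kb for HOXA, 117 kb for HOXC and 103 kb for HOXD. By number of peaks the values in NSC1 and NSC2 were 5 and 6 in HOXB, 8 and 5 in HOXA, 6 and 3 in HOXC and 3 and 5 in HOXD. NSC-only regions numbered 3 of 7 in HOXB, 4 of 9 in HOXA, 3 of 6 in HOXC and 1 of 7 in HOXD. The order of the clusters by density differed between the NSC libraries, and no test was made between them.

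**Figure D4:**
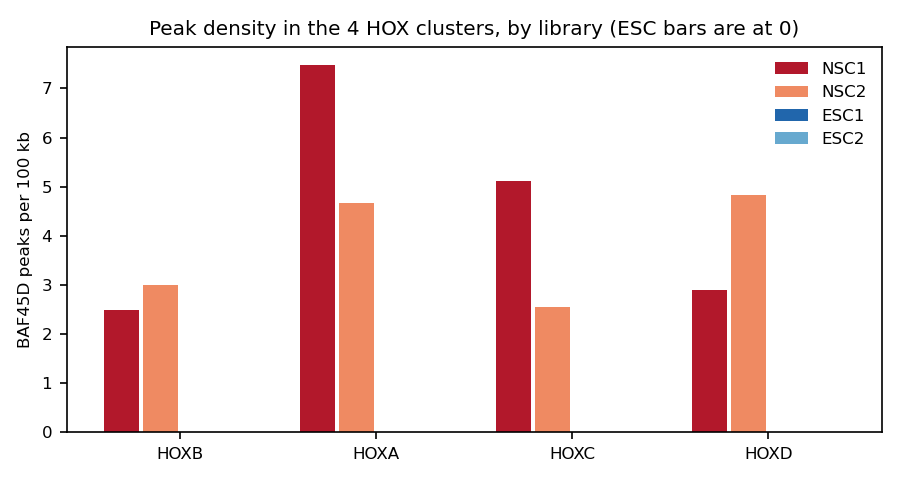
Bars are BAF45D peaks per 100 kb from the first to the last gene of each HOX cluster, in NSC1, NSC2, ESC1 and ESC2. HOXB has 2.497 and 3.00 in the NSC libraries, and every ESC bar is at 0.

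Partners of HOX proteins on DNA often had peaks at their own gene ends in the NSC libraries. Of 9 PBX, MEIS and PKNOX genes, 7 had a peak at a gene end in NSC1 and 7 in NSC2, against 1 in ESC1 and 2 in ESC2, beside 42.8% and 38.1% of all genes in NSC1 and NSC2, against 6.67% and 22.8% in ESC1 and ESC2. At ends 4 of the genes were NSC-only, beside 16.2% of all genes, namely MEIS1 (−log10 q of 7.42 in NSC1 and 8.65 in NSC2), MEIS2 (10.3 and 8.01), PBX3 (8.02 and 9.32) and PBX4 (5.81 and 7.73), and none was NSC-only at lists of equal length. With 10 kb on either side 9 had a peak in NSC1 and 9 in NSC2, against 3 in ESC1 and 7 in ESC2. The shares over all genes were 64.2% and 59.2% in NSC1 and NSC2, against 15.3% and 43.4% in ESC1 and ESC2. Of the 9 genes 2 were then NSC-only, MEIS2 and PBX4, beside 19.7% of all genes. ESC2 had a peak within 10 kb at MEIS1 (5.17) and PBX3 (5.42). PBX2, without a peak at its ends, had one within 10 kb in every library. PKNOX1 had 42.6 and 33.3 in NSC1 and NSC2, against 10.9 in ESC2 and no peak in ESC1.

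Of 26 genes that act upstream of the HOXB genes, 9 had a peak at an end in NSC1 and 9 in NSC2, against 0 in ESC1 and 4 in ESC2, and 15 had none in any library. The shares over all genes were 42.8% in NSC1 and 38.1% in NSC2, against 6.67% in ESC1 and 22.8% in ESC2, and 51.1% had no peak, so the list was close to genes in general in the NSC. NSC-only genes at ends were 4, beside 16.2% of all genes. Among the 15 without a peak at an end were CDX1, CDX2 and CDX4 and the retinoic acid receptors RARA, RARB and RARG. The retinoic acid-degrading enzymes CYP26A1, CYP26B1 and CYP26C1 were also among them. Within 10 kb 18 of the 26 had a peak in NSC1 and 15 in NSC2, against 0 in ESC1 and 11 in ESC2. The shares over all genes were 64.2%, 59.2%, 15.3% and 43.4%. Then 5 had no peak in any library, beside 25.9% of all genes, and 8 were NSC-only, beside 19.7%. RARA was NSC-only (−log10 q of 13.3 in NSC1 and 20.5 in NSC2). RARB had 21.3 and 17.7, against 3.84 in ESC2, and RARG 4.57 in NSC1 alone. The list holds 6 Polycomb genes, which did not share a pattern at their ends. EZH2 (−log10 q of 2.41 in NSC1 and 4.34 in NSC2), EED (3.19 and 8.40) and SUZ12 (17.2 and 6.79) were NSC-only, RNF2 had a peak in NSC2 alone (3.34), and BMI1 and CBX2 had none. Within 10 kb EED also had a peak in ESC2 (2.74). BMI1 (1.74 in NSC1 and 6.92 in NSC2) and CBX2 (5.42 and 7.09) were then NSC-only. KMT2A, the methyltransferase that keeps HOX genes active, had 16.6 and 11.7 in NSC1 and NSC2, against 12.2 in ESC2. CTCF, which bounds domains in HOX clusters, had 29.8 and 21.1 in NSC1 and NSC2, against 8.42 in ESC2.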

How the data were processed

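BAF45D CUT&Tag was analysed in 2 NSC and 2 ESC libraries. Per the submitters' processing notes the tools were FastQC, Trimmomatic, BWA 0.7.12 and MACS2, with hg38 as the build. Peaks were called for each library alone with MACS2 2.1.0.20150420, with no control, at a q threshold of 0.05, per the file headers. The authors deposited for each peak the summit pileup (a signal), the fold enrichment (a ratio to the local background) and −log10 p and −log10 q values. All are relative to 1 library, so libraries were compared by presence and number of peaks only. Depth is the tag number of the headers, and a place without a peak carries no count, so no lower limit was derived.

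Entries with the same start and end were joined. Chromosomes 1 to 22 and X were used, and overlaps of at least 1 bp merged. Genes, miRNAs and promoter windows came from RefSeq tables of GRCh38.p14. A region counts as at a gene end when it lies 1 kb or less from the start or end of a coding gene, which may be its 3′ end or a neighbour's start. Numbers per library were compared by a two-sided exact permutation test, and counts were set beside those over all genes or regions. Python 3.11.15, pandas 2.3.3, NumPy 2.4.6, SciPy 1.17.1 and matplotlib 3.10.9 were used. The merging, the class calls and the calls of genes by window were tested on simulated data, and the distances in bp were not.

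The named genes are all HOXB genes, other genes of the window with a peak in them or within 1 kb, the 10 strongest regions by mean percentile, and the lists of cofactors and upstream regulators, of which some members are not reported here. The members and lists were chosen with earlier results of these data known. Alternatives were a −log10 q minimum of 5, equal list lengths, other windows and overlaps, separate summits and each library left out.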

Additional observations from a re-analysis of the deposited data

How the results depend on the processing

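Of 176 values recomputed over 15 settings, 140 were classed as kept and 2 turned their direction. For differences in peak number, kept means the same sign alone, since no p of 2 libraries against 2 falls below 0.333. A fall from 29 to 2 peaks thus counts as kept, and so do HOXB2, HOXB4 and HOXB13, which had no peak within 10 kb in any library. The 140 is therefore no measure of how well sizes held. The difference on the HOXB13 side, 3 peaks, was −0.5 at equal list lengths and ranged from −0.5 to 6.5 over the libraries left out. The difference in the window, 29, ranged from 24 to 34 with a library left out, that in the cluster, 5.5, from 5.0 to 6.0, and that on the HOXB1 side, 20.5, from 19 to 22. Equal list lengths lowered them to 2, 1.5 and 1. Per 1000 peaks of a list the window held 1.31 in NSC1 and 1.58 in NSC2, against 1.19 in ESC1 and 1.20 in ESC2. The peaks of the cluster per 1000 peaks of a list differed by 0.206 between NSC and ESC, by 0.272 with a −log10 q of at least 5, by 0.357 at equal list lengths and by 0.131 with the cluster ended at HOXB9.

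NSC-only regions of the window numbered 19 in the main setting, 2 at equal list lengths, 8 with flanks of 250 kb and 19 to 30 with a library left out. Those of the cluster were 3, 1 at equal list lengths and 3 to 6 with a library left out, and those of SKAP1 were 13, 8 with a −log10 q of at least 5, 1 at equal list lengths and 13 to 18. ESC-only regions of the window were 1, and 0 with a −log10 q of at least 5, at equal list lengths and with flanks of 250 kb, and 1 to 4 with a library left out. Regions of all libraries were 3, 1 with flanks of 250 kb and 3 to 9. HOXB genes called NSC-only within 10 kb were 4, 1 inside the gene alone, 2 within 5 kb and 4 to 7 with a library left out, and at gene ends 2, or 2 to 3. The causes were not tested beyond what each setting removes by construction.

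With the replicate number as a block the differences remained 29, 5.5, 20.5 and 3 and the p was 0.5, 0.5, 0.5 and 1. The numbers do not pair the libraries (r = −0.00673 over 19974 genes between the NSC and the ESC difference). A planned window around the 5′ end alone was not run, because the promoter table held 1 of the 10 HOXB genes. No control library was used, and ESC lists were shorter in spite of more tags, so a missing ESC peak is not shown to be missing BAF45D.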
